A study of Mus musculus with 3 samples.

Results

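The Spata (spermatogenesis-associated) and Tex (testis-expressed) genes are named for the organ in which their transcripts were found, and share no single protein family. The members described here are the autosomal protein-coding genes of the GENCODE vM21 annotation of mm10 whose symbols are Spata or Tex followed by a number, with Spata22, Tex11 and Tex12 left out. The rule gave 57 genes, 28 Spata and 29 Tex, of 20807 autosomal protein-coding genes, and no gene was dropped for lacking a peak. The rule used names only, and neither the presence nor the height or width of H3K4me3 was a criterion. It was set with earlier results of these data known.

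H3K4me3 was measured by ChIP-seq in whole adult testis of males from a C57BL/6J mother and a CAST/Eij father that carried a humanised *Prdm9* allele and the CAST allele, written (B6xCAST)F1-*Prdm9* Hum/Cast. The humanised allele has the zinc-finger array of PRDM9, the DNA-binding part, replaced by that of the human B allele, and both ChIP libraries and the input carried it. There were 2 ChIP libraries and 1 input library of this 1 condition, from mice aged 23 weeks, and the methods describe 1 testis from each of a pair of littermates, whereas the series description gives both testes of a single male, in which case the spread between replicates is technical. Peaks were called jointly on both ChIP libraries, so no test over samples was possible. The results below are counts and levels, most of them set beside the same quantity over all autosomal protein-coding genes.

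H3K4me3 is laid down on the nucleosomes around active or poised transcription start sites, and in meiotic cells PRDM9 places it at recombination hotspots as well. Starts rich in CpG dinucleotides recruit the enzymes that write the mark in most cell types, whereas many genes of late male germ cells start in DNA poor in CpG. Whole testis holds spermatogonia, spermatocytes, spermatids and somatic cells, so fewer cells with the mark and less mark per cell cannot be told apart here, nor can the cell type that carries it.

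Starts were called CpG-rich where the 500 bases on either side of any annotated start had an observed over expected CpG ratio of at least 0.6 and a G+C share of at least 50%. By this measure 17 of the 57 members (29.8%) were CpG-rich and 40 were CpG-poor, against 52.7% CpG-rich among all genes. RefSeq promoters of GRCm38.p6 were found by symbol for 51 members, and for 44 of these the RefSeq start lay within 200 bp of the annotated start used. In the 250 bases upstream, the 13 CpG-rich members among them held a median of 27 CpG dinucleotides (9 to 39), the 31 CpG-poor members a median of 3 (0 to 15), and all 19174 promoters a median of 11.

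The contrast is shown by the bases directly upstream of the start in 5 members, 5′ to 3′ on the gene's strand, with each CpG in capitals. They are the CpG-rich and the CpG-poor members of highest and of lowest H3K4me3 level among those with at least 100 bases free of annotated exons (Spata24 and Tex43 were not considered), followed by the member without a narrow peak. Spata2 and Tex15, the extremes among all CpG-rich members, are not printed because an exon covers the window or no promoter was matched. Tex2 (chr11:106612931-106613130, minus strand, 28 CpG) and Tex14 (chr11:87404955-87405064, plus strand, 15 CpG) are CpG-rich, and Spata7 (chr12:98627942-98628141, plus strand, 9 CpG), Spata31d1c (chr13:65032858-65033057, plus strand, 0 CpG) and Tex44 (chr1:86426229-86426328, plus strand, 0 CpG) are CpG-poor.
Tex2: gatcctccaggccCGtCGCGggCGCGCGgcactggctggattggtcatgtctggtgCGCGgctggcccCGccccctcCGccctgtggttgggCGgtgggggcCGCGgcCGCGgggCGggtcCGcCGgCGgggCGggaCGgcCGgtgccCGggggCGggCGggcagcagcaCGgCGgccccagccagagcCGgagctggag
Tex14: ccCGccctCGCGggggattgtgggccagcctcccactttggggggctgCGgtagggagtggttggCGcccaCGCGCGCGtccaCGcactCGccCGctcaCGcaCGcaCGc
Spata7: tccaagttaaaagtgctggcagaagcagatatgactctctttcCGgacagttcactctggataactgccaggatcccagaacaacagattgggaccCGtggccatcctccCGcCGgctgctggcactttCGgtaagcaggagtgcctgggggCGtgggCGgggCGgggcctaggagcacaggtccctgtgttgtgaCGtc
Spata31d1c: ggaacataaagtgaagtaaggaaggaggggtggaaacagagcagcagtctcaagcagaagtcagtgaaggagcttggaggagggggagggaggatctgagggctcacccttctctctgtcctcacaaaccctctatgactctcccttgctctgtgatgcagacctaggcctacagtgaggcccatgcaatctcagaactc
Tex44: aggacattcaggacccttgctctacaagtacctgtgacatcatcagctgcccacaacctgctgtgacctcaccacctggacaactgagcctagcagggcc

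Short motifs were searched on both strands of the same 250 bases, and none of the motif words contains another. The GC box GGGCGG occurred in 17 of 44 members (38.6%) and in 44.6% of all promoters, with 10 of 13 CpG-rich and 7 of 31 CpG-poor members holding it. The ETS word CCGGAAG occurred in 6 of 44 members (13.6%), Spata2, Spata6, Spata17, Spata33, Tex10 and Tex30, and in 9.45% of all promoters. All 6 were CpG-rich. TATAAA occurred in 3 members (6.82%), Spata4, Tex10 and Tex19.1, against 11.2% of all promoters, the NRF1-type word GCATGCGC in 2 members (4.55%), Spata1 and Tex19.1, against 3.06%, and the cyclic AMP response element TGACGTCA in 0 of 44 members against 2.03%.

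Nearly every member carried H3K4me3 within 1 kb of a start. A narrow peak was centred within 1 kb of an annotated start in 56 of the 57 members, against 77.3% of all autosomal protein-coding genes, and a broad peak, made by the authors from enriched bins of 100 bp, lay within 1 kb in 57 of 57, against 80.1%. The strongest narrow peak was PRDM9-independent in 55 of 56 members, against 92.2% of all genes with a narrow peak. PRDM9-independent means that its centre lay in a region the authors found marked in common between mice with non-overlapping *Prdm9* alleles. PRDM9-dependent means only that the centre lay outside these regions. The exceptions were Tex44, with a broad peak only, and Tex21, whose narrow peak was PRDM9-dependent. Of the 238 annotated starts of the members, 47 (19.7%) had no narrow centre within 1 kb, against 38.7% of the 90310 starts of all genes, and such a start can still lie in a broad peak. Within 500 bp of a start, 45 of 57 members had a narrow centre, against 71.8% of all genes, and 28 of 40 CpG-poor members, against 45.2% of all CpG-poor genes. Coverage was above the input in both ChIP libraries at all 56 peaks, but peaks were called for enrichment, so this adds no support.

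In the presence of a narrow peak, the difference from other genes lay among the CpG-poor members. A narrow peak was present at 39 of 40 CpG-poor members, against 52.7% of all CpG-poor genes and 60.5% once the olfactory and vomeronasal receptor genes (symbols Olfr and Vmn) were set aside. At CpG-rich starts the mark was close to universal, in 17 of 17 members and in 99.4% of all CpG-rich genes. The median enrichment over local background, as the peak caller deposited it, was 29.2 for the 56 members and 37.9 for all genes with a narrow peak. Split by CpG class, it was 59.3 for CpG-rich members and 52.5 for all CpG-rich genes, and 23.2 for CpG-poor members and 11.7 for all CpG-poor genes. Within each class the members' median was thus above that of all genes of the class, and over both classes together it was below, CpG-poor starts being 40 of the 57 members. The strongest narrow peak was PRDM9-independent in 38 of 39 CpG-poor members, against 77.8% of all CpG-poor genes with a narrow peak. The values of that class, here and below, thus include more PRDM9-dependent peaks. Their part in the differences of presence, level, width and position was not tested.

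The number of fragments over the peak centre also differed between the CpG classes in each library. In the text that follows, coverage is given in the order replicate 1, replicate 2 and input, in fragments not scaled for depth. The members' median coverage was 446, 507 and 13.5, and that of all genes with a narrow peak 756, 826 and 20. CpG-rich members had medians of 1630, 1840 and 24, and CpG-poor members of 203, 237 and 11, so the classes differed far more than the replicates. All CpG-rich genes with a narrow peak had medians of 1153, 1246 and 22, and all such CpG-poor genes 142, 162 and 13. CpG-poor members were thus above their class in both ChIP libraries and below it in the input, which also enters their enrichment. After scaling both ChIP libraries to the same summed coverage, 16 of 17 CpG-rich members were above the median of all genes, against 68.9% of all CpG-rich genes with a narrow peak, and 33 of 39 CpG-poor members were below it, near the 89.6% of all CpG-poor genes with one. All of the 10 highest members were CpG-rich and all of the 10 lowest CpG-poor.

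**Figure D1:**
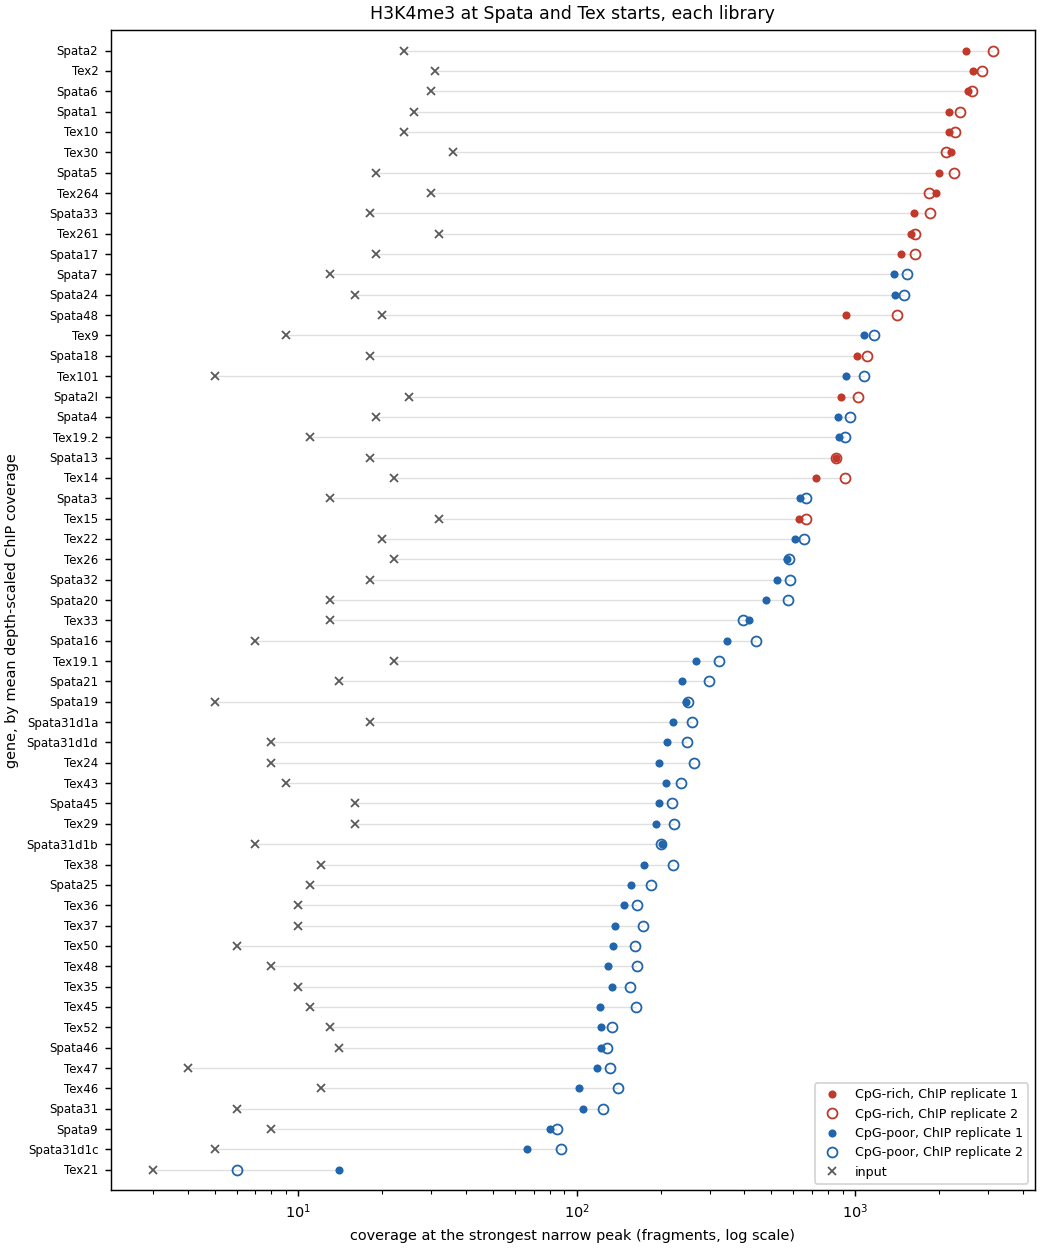
Coverage at the strongest narrow peak of 56 members in each library, in fragments on a log axis, with CpG-rich members in red and CpG-poor members in blue, filled points for ChIP replicate 1, open points for replicate 2 and crosses for the single input library. The members run from Spata2 at 2491 and 3114 fragments down to Tex21 at 14 and 6, and both ChIP libraries lie above the input at every member.

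Members with functions shared with other tissues were all marked, and 6 of the 10 highest members were among them. Spata2, an adaptor that joins a deubiquitinase to the linear ubiquitin ligase in tumour necrosis factor signalling, had the highest coverage of all members, at 2491, 3114 and 24, with an enrichment of 110. Its start, at position 167492845 of chromosome 2, lies within 1 kb of a start of Rnf114, and fragments at the shared centre cannot be assigned to either gene. Tex2, a lipid-binding protein of the endoplasmic reticulum, had 2646, 2862 and 31. Tex10, a partner of the ribosome maturation machinery, had 2175, 2285 and 24. Of all genes with a narrow peak, 98.5%, 98.3% and 92.7% had a scaled coverage at or below that of these 3 genes.

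Spata5, an AAA-type ATPase needed for ribosome maturation, had 1999, 2267 and 19 and an enrichment of 106. A start of Nudt6 lies within 1 kb of its centre. Tex264, a receptor for autophagy of the endoplasmic reticulum, had 1946, 1840 and 30, and Tex261, a protein of the early secretory route, had 1580, 1639 and 32. Spata7, a protein of the photoreceptor cilium, was the only CpG-poor gene of these 10, with a CpG ratio of 0.54 just under the limit, and had 1373, 1539 and 13 with an enrichment of 105. Spata18, a mitochondrial quality control gene, had 1013, 1100 and 18. Spata2l, a relative of Spata2, had 891, 1020 and 25, and Spata13 had 856, 852 and 18. All 10 had a peak, 9 of 10 were CpG-rich, and the median enrichment was 71.4.

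The genes of germline genome defence and of the bridges between germ cells were lower. Tex14, which forms the stable intercellular bridges of dividing germ cells, had 724, 918 and 22, and its centre lies within 1 kb of the start of Rad51c. Tex15, needed for DNA methylation of transposons in the male germ line and for repair of meiotic breaks, had 627, 663 and 32 with an enrichment of 18.8, the lowest level of the 17 CpG-rich members. Its CpG ratio was 0.80.

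The paralogues Tex19.1 and Tex19.2, of which Tex19.1 restrains retrotransposons in germ cells and placenta, lie side by side on chromosome 11 and differed in level. Tex19.2 had 872, 917 and 11 with an enrichment of 76.4, and Tex19.1 had 267, 325 and 22 with an enrichment of 12.5. The ranges of the ChIP replicates did not overlap. Of the 51-base words within 500 bases of the start, 8.73% at Tex19.1 and 7.47% at Tex19.2 occurred more than once in the reference genome, and the part of such repeated words in the values was not tested. Both genes were CpG-poor, and their broad peaks, 1500 bp and 2900 bp wide, were among the 6 below or at the median of all genes.

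Genes of sperm structure and membrane spanned nearly the whole range. Spata6, needed to build the connecting piece between sperm head and tail, had 2534, 2636 and 30, and Spata33, which anchors calcineurin in the sperm midpiece, had 1630, 1857 and 18 next to the start of Chmp1a. Tex101, a membrane protein of germ cells that sperm need to enter the oviduct, had 930, 1074 and 5. Its enrichment of 189 was the highest of all members, and rests on an input of only 5 fragments. Spata16, needed to form the acrosome, had 346, 439 and 7 with an enrichment of 52.7. Spata19, a protein of sperm mitochondria, had 246, 250 and 5, and Spata46, which acts in the shaping of the sperm nucleus, had 122, 128 and 14 with an enrichment of 8.27. The 6 genes thus differed by a factor far beyond the gap between replicates, and only Spata6 and Spata33 were CpG-rich.

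The Spata31 genes, a family of related testis genes on chromosome 13, were all marked, all CpG-poor and all below the median coverage of all genes. Against all CpG-poor genes with a narrow peak, with medians of 142 and 162 fragments, only Spata31 and Spata31d1c were below in both replicates. Spata31d1a had 221, 259 and 18, Spata31d1d 211, 248 and 8, and Spata31d1b 203, 200 and 7. Spata31 had 105, 124 and 6, and Spata31d1c 66, 88 and 5. In each of these genes the ChIP coverage was more than 10 times the input in at least 1 replicate. Spata31d1c has no CpG within 500 bases of its start (ratio 0), and its exact 95% interval of the replicate difference, −0.18 to 0.78 on the log2 scale, spans 0. Spata31d1a and Spata31d1b start on opposite strands inside a single broad peak of 11100 bp. At Spata31d1b 30.1% of the words were repeated in the genome, and the part of such words in its value was not tested.

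The 32 members for which no role is stated here included 28 CpG-poor genes, and 31 had a narrow peak. The highest of them were the CpG-rich Spata1 at 2179, 2375 and 26, Tex30 at 2214, 2119 and 36, and Spata17 at 1458, 1641 and 19. Among the CpG-poor ones, Spata24 had 1385, 1493 and 16, Tex9 had 1073, 1171 and 9 with an enrichment of 117, and Spata4 had 870, 958 and 19. These stood well above the CpG-poor median. Spata3, Tex22, Tex26, Spata32, Spata20 and Tex33 followed, between 632 and 414 fragments in replicate 1 and between 668 and 395 in replicate 2. Spata21, Tex24, Tex43, Spata45, Tex29, Tex38, Spata25, Tex36, Tex37, Tex50 and Tex48 lay between 239 and 129 in replicate 1 and between 299 and 162 in replicate 2.

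At the lower end, Tex35 had 134, 155 and 10, Tex45 had 121, 163 and 11, and Tex52 had 122, 134 and 13. Tex47 had 118, 132 and 4, and its enrichment of 29.3 was above that of Tex52 (9.14) where the input was 4 fragments against 13. Tex46 had 102, 141 and 12. The replicate ranges of neighbours in this order overlapped, so the order of these 5 genes is not resolved. Spata9 had 80, 85 and 8 with an enrichment of 9.58, below all 5 in both replicates.

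Tex21 (ENSMUSG00000021056.8, chromosome 12) stood apart from the rest. Its strongest narrow peak near a start had 14, 6 and 3 fragments and an enrichment of 3.01, lay upstream of an alternative start (at −648 bp), and was PRDM9-dependent. The first start of the gene lies in another broad peak, chr12:76241801-76248500, 6700 bp wide and PRDM9-independent, whose narrow peak was centred 1586 bp downstream of the nearest start and had 98, 120 and 8 fragments with an enrichment of 12.7. The value by the 1 kb rule thus describes the alternative start. At that start 44.8% of the words were repeated in the genome.

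Tex44 (ENSMUSG00000036574.5, chromosome 1) was the only member without a narrow peak within 1 kb. Its nearest centre lay 1115 bp downstream of the start, with 241, 270 and 15 fragments and an enrichment of 15.9. The gene, 1724 bp long, lies whole inside the widest broad peak of any member, chr1:86419501-86444100, of 24600 bp, which also holds the start of Nmur1.

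The replicates were close at the members. The log2 ratio of replicate 2 to replicate 1, after scaling by summed coverage, had a median of 0.05 over the 56 members. Across the 22828 narrow peaks with a scaled coverage of at least 100, 95% of ratios lay between −0.26 and 0.38. Spata48 (930 and 1418 fragments) was the only member with such coverage above that range, at 0.49 with an exact 95% interval of 0.37 to 0.61, and 0.705% of those peaks had a ratio as high. The centre lies within 1 kb of the start of Zpbp, a gene of the acrosome. Tex21 had the largest difference, −1.34 with an interval of −3.01 to 0.13, at only 14 and 6 fragments. These intervals cover counting error only.

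The level followed CpG content across the members. Spearman's correlation of scaled coverage with the CpG ratio at the start used was 0.90 over the 56 members and 0.68 over 16066 genes. It is a description over genes that share the same libraries and differ in base composition. The CpG-rich Tex30, with the highest ratio of 1.14, and Spata31d1c, at 0, mark the ends of the range.

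**Figure D2:**
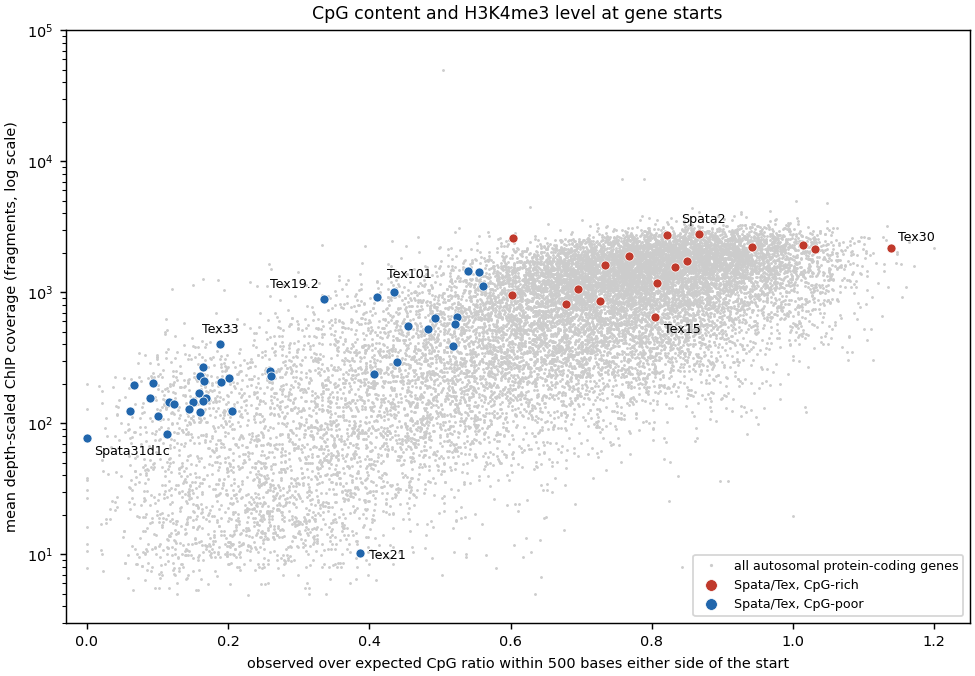
Mean depth-scaled ChIP coverage, in fragments on a log axis, against the observed over expected CpG ratio within 500 bases of the start, for all autosomal protein-coding genes with a narrow peak (grey) and for CpG-rich (red) and CpG-poor (blue) members. The members rise with the ratio from Spata31d1c at 0 to Tex30 at 1.14, and Tex21, at 14 and 6 fragments, lies below the others.

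The broad peaks of the members were wide. Their median width was 6700 bp, against 3200 bp over all genes with a broad peak, and 51 of 57 members were above that median. A width of at least 5 kb was found in 42 of 57 members (73.7%), against 25.8% of all genes. Among CpG-poor genes it was 32 of 40 members against 20.7%, with medians of 7150 bp and 2200 bp, and among CpG-rich genes 10 of 17 members against 28.4%, with medians of 5300 bp and 3500 bp. In both classes the members' median width was thus above that of all genes of the class, and the gap was larger in the CpG-poor class. Wide peaks were not particular to the members. The 8 germ cell genes used below as a check of the tissue had a median width of 11500 bp.

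Height and width were not coupled as in other genes. Spearman's correlation of scaled coverage with broad width was −0.11 over the 56 members and 0.47 over all genes, again as a description over genes. A broad peak above the median width together with a coverage below the median level was found in 30 of the 56 members, against 16.7% of all genes. Neither comparison was split by CpG class. Of these 56 members 39 were CpG-poor, against 5191 of the 16086 genes with a narrow peak, and the part of this difference was not tested. Widths of at least 10 kb occurred in 16 of 57 members, against 5.87% of all genes with a broad peak, in 14 of 40 CpG-poor members, against 5.97% of all such genes, and in 2 of 17 CpG-rich members, against 5.81%. Of these 16 members, 7 had a broad peak that also held a narrow centre stronger than their own. In Tex38, with a broad peak of 10400 bp and 174 and 222 fragments at its own centre, the other centre had 2529 and 2377 fragments, and the start of Atpaf1 lies in the same broad peak. In Tex45 (15900 bp) the own centre had 121 and 163 fragments and the other 660 and 720, with the start of Pex11g, and in Spata25 (14400 bp) 156 and 185 against 767 and 824, with the start of Zswim1. The other 4 were Spata18, Spata31d1b, Spata31d1d and Tex44, which has no centre of its own within 1 kb. For Spata31d1b the stronger centre is that of Spata31d1a, in the broad peak that both share. Tex33, by contrast, had 414 and 395 fragments at the strongest centre of its 16200 bp. Of the 30 wide and low members, 25 held no stronger centre. Broad peaks with a centre stronger than the gene's own were not counted over all genes. The strongest member, Spata2, had a width of only 4300 bp.

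**Figure D3:**
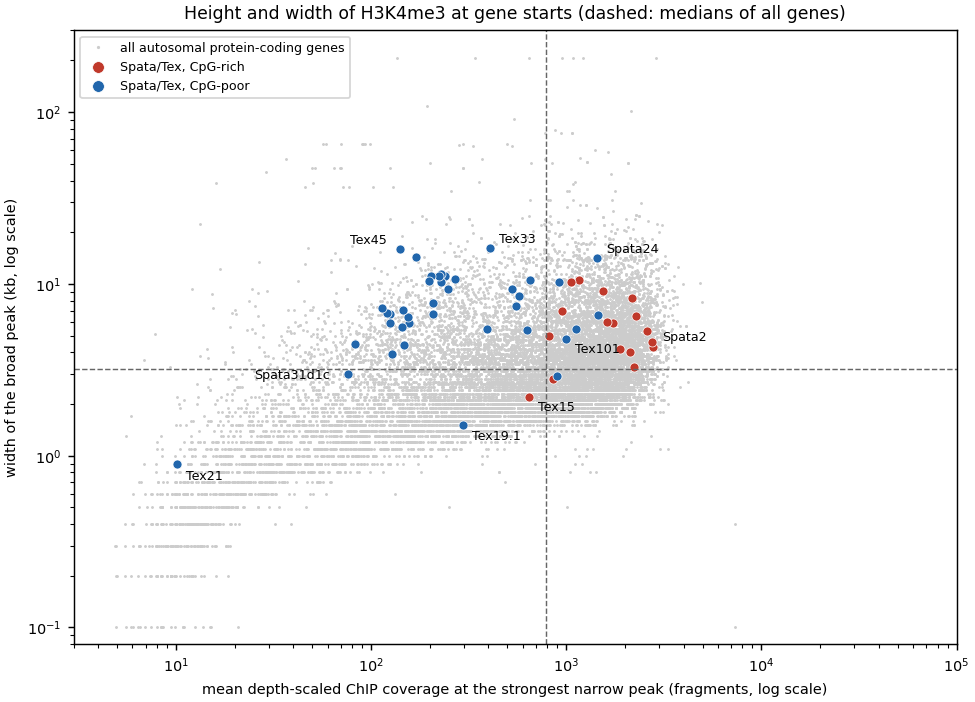
Width of the broad peak in kb against mean depth-scaled ChIP coverage in fragments, both on log axes, for all autosomal protein-coding genes with both values (grey) and for CpG-rich (red) and CpG-poor (blue) members, with dashed lines at the medians of all genes. Of the 56 members 30 lie at the upper left, wide and low, while Tex21, Tex19.1, Tex15 and Spata31d1c lie in the lower left.

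Some of the broad peaks held the starts of neighbouring genes. Another protein-coding start lay inside the broad peak of 17 members, and 28 of the 42 members with a width of at least 5 kb had no other coding start there. Spata31d1a and Spata31d1b share theirs, so the 42 members have 41 distinct wide peaks. In 9 members another coding start lay within 1 kb of the narrow centre, 7 of them CpG-rich, namely Spata1 with Gng5 and Spata17 with Gpatch2 beside Spata2, Spata5, Spata33, Spata48 and Tex14 above, and, among the CpG-poor ones, Tex52 with Gm44596 and Spata24 with a second annotated gene of its own name, written SPATA24. Without those 9, the median enrichment of the remaining 47 members with a narrow peak was 26.9. The median width over the 40 members with no other coding start in the broad peak was 6200 bp. None of these counts and medians was taken over all genes, so they describe the members only.

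Many members are short, and the mark often covered most of the gene. The broad peak lay over at least 50% of the annotated span in 23 of 57 members, against 13.1% of all genes. With genes of up to 20 kb only, it was 23 of 38 members (60.5%) against 27.7%. The whole gene was inside the peak in 10 members, all among the 38 of up to 20 kb (26.3%), against 12.6% of all genes of that size. These were Spata19, Spata24, Spata25, Spata31d1d, Spata46, Tex19.2, Tex24, Tex38, Tex43 and Tex44, all CpG-poor. The peaks of Spata25, Spata31d1d, Tex38 and Tex44 also held a stronger centre, as given above, and that of Spata24 the start of Prob1. In these genes the cover cannot be assigned to the member's own start alone. Tex24, for example, spans 4795 bp in a peak of 10300 bp, with 40.3% repeated words at its start.

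**Figure D4:**
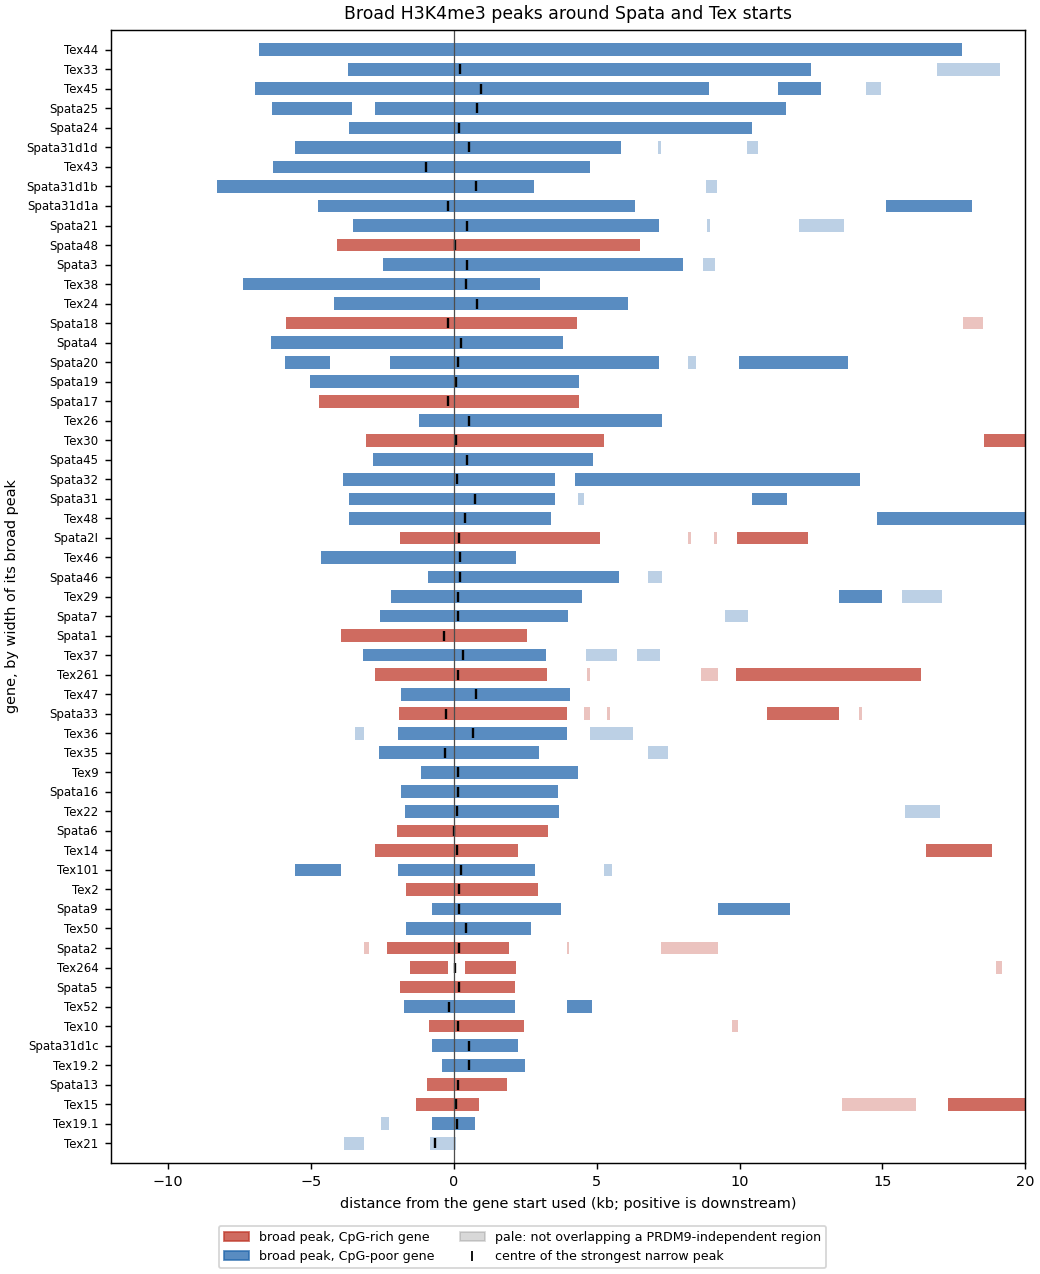
Broad peaks around the start used for each of 57 members, in kb from that start with positive values downstream, sorted by the width of the broad peak, with CpG-rich members in red, CpG-poor members in blue, pale bars for broad peaks that overlap no PRDM9-independent region and black ticks at the strongest narrow centre. Tex44 has the widest peak, 24600 bp, and no tick, the bars of Tex264 leave a gap at its tick, and Tex21 is drawn at its alternative start. Bars are drawn for broad peaks over the gene or up to 5 kb from it, as far as the window reaches.

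The mark lay mostly just downstream of the start, and farther so at CpG-poor members. The strongest centre was downstream of the nearest start in 46 of 56 members (82.1%), with a median of 168.5 bp, near the 77.4% of all genes. More than 300 bp downstream lay 18 members, all CpG-poor, which is 18 of 39 CpG-poor members with a narrow peak against 22.3% of all such genes. Tex45 was farthest, at 937 bp, followed by Tex24 at 827 bp and Spata25 at 823 bp. Tex43 was the farthest upstream, at −962 bp. Tex264 was an exception in shape, for its centre lay in a gap between broad peaks of 1800 bp and 1300 bp, and the width used for it, 4200 bp, is that of a broad peak at another of its starts.

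PRDM9-dependent narrow peaks, as defined above by lying outside the PRDM9-independent regions, were as frequent inside the members as in all genes. Such peaks over 1 kb from every start of the gene were found in 24 of 57 members (42.1%), against 43.3% of all genes, and their density was 26.4 per Mb in the members and 26.7 per Mb in all genes. The 52 peaks included 9 in Spata16, which spans 345593 bp, 6 in Spata13 and 5 in Tex2. A share this close to that of all genes is not a property of the members.

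As a check of the tissue, the defining genes of germ cells were all marked. A narrow peak was present at 8 of 8 germ cell genes, between 126 and 2006 fragments in replicate 1, at 6 of 7 somatic testis genes, between 32 and 311, and at 3 of 7 genes of other tissues, between 22 and 191. Alb, Ins2, Myh6 and Krt5 had none. The widths of the germ cell genes ran from 4000 bp to 23900 bp, with a median of 11500 bp, above the 6700 bp of the members. Over all 101978 narrow peaks the summed coverage was 17621116 and 19094837 fragments in the ChIP libraries and 1250138 in the input.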

How the data were processed

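H3K4me3 ChIP-seq libraries of whole testis were mapped to mm10 by the authors (BWA, SAMtools and bedtools in the submitters' processing notes). The deposited coverage values are counts of fragments overlapping each narrow peak centre in each library, without normalisation. The deposited enrichment is a ratio, the authors' likelihood estimate over local background from both replicates, and the deposited p-value is their test of each peak against none (narrow peaks at 1e-06, broad peaks at 1e-05, very small values written as 0). Broad peaks and PRDM9-independent regions were deposited as positions. Pairs of mapping quality 0 had been removed, which lowers coverage in repeated sequence, and joint calling prevents a comparison of peak sets between replicates.

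Starts came from GENCODE vM21, CpG ratios from the mm10 sequence and promoters from RefSeq. For each gene the narrow peak of highest mean depth-scaled coverage within 1 kb of a start was used, with the broad peak that holds it, or else the widest within 1 kb. Scaling used each library's summed coverage over all narrow peaks. The assignment of peaks to starts was tested on simulated peaks. Per-library values are given for the 10 highest and 10 lowest members, for genes of the role lists, and for members with 1 kind of peak, a PRDM9-dependent peak or discordant replicates. Other members, and the examples of width, were chosen with their values in view. The members and lists were chosen with earlier results of these data known. Precision is limited by the fragments at each centre, 6 to 3114 per ChIP library, and by the input, 3 to 36. Alternatives were other distances, starts, peak sets, CpG limits, scalings and single replicates. Analyses ran in Python 3.11.15 with scipy 1.17.1, pandas 2.3.3 and numpy 2.4.6, and matplotlib 3.10.9 drew the plots.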

Additional observations from a re-analysis of the deposited data

How the results depend on the processing

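Of 61 alternatives, 52 left the result within a set limit. The limit was 1.5 times for a count and the replicate spread of 0.0198 on the log2 scale for the median enrichment. For the median width it was 100 bp, and for the replicate ratio its standard deviation across members. A count of nearly all members could not rise past its limit, and the alternatives for peak sets and single replicates reused the joint calls. The total of 52 is thus a weak check. The median enrichment moved in 6 alternatives and stayed in 5. At 500 bp, 45 members had a narrow peak in place of 56, and 28 CpG-poor members in place of 39. The median enrichment of the members was 38.0 with a distance of 500 bp, 27.9 with the peak nearest to a start, and 28.2 to 30.0 as the ratio of 1 replicate to the input, with 1 added to both, in its place. The median width was 7200 bp as the summed width of all broad peaks, and 11 CpG-rich members had a narrow peak with a CpG ratio limit of 0.75. In alternatives added after seeing the data, the median enrichment was 26.9 without centres near another coding start and 35.0 with at most 5% repeated words, and the median width 6200 bp without broad peaks holding another coding start. The cause of these shifts was not tested. No paired analysis was possible because there was 1 condition and 1 input. Depth limits Tex21 and the members with few input fragments, whose enrichment is imprecise.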
